A study of Mus musculus with 6 samples.

Results

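Liver-enriched hepatocyte transcription factors are the regulators that hold together the gene program of the hepatocyte. The 8 genes described here, Hnf4a, Foxa1, Foxa2, Foxa3, Cebpa, Cebpb, Onecut1 and Prox1, were taken by their symbols from a liver RNA-seq table. All 8 were found among its 27179 gene rows, and all 8 had a level above 0. Poly-A RNA had been sequenced from 6 livers of C57BL/6 mice that carried floxed alleles of Lsd1, also named Kdm1a, which encodes the histone demethylase LSD1. The 3 LSD1-LKO mice had received AAV8-TBG-Cre by tail vein at 6 to 7 weeks of age. This virus carries Cre recombinase under the promoter of thyroxine-binding globulin, which the study used to delete Lsd1 from hepatocytes. Lsd1 in the other cells of the liver cannot be seen in the values used here. The 3 Control mice were Lsd1-floxed as well and had received AAV8-TBG-GFP. Mice of both groups were placed on a high-fat diet 1 week later, for 12 weeks by the series description and for a shorter time by the methods of the study. The sex of these animals is not stated in the labels.

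The study asked how loss of LSD1 from hepatocytes alters liver gene expression. The values used here cannot divide the livers into LSD1-LKO and Control, because each gene has 1 mean over all 6 livers. This mean, the base mean, is the authors' average of read counts after each library was scaled for its depth. The fold changes and p-values of the authors were not used, so no difference between LSD1-LKO and Control is given for any gene. Kdm1a had a base mean of 219 over the 6 livers, which cannot show by itself whether the gene was deleted. The results below therefore describe how strongly each factor gene was expressed in these livers as a set, and what the genes share.

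In the liver, HNF4A is a nuclear receptor that binds DNA as a dimer and drives genes of lipid, bile acid, clotting and drug metabolism. The FOXA proteins are forkhead factors that can bind sites in closed chromatin and open them for other factors, and C/EBPα and C/EBPβ are leucine zipper proteins. ONECUT1, also named HNF6, carries a cut domain beside its homeodomain, and PROX1 is a homeodomain protein that interacts with HNF4A. These factors are known to bind each other's genes and to share many targets.

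The depth of the libraries could be read from the lowest base means. A gene with 1 read in 1 library has a base mean set by the scaling of that library alone, and 986 genes stood at 6 such values, from 0.153 to 0.180. All 1936 base means under 0.6 were sums of whole numbers of these values, within 1e-06. Base means at the 6 values themselves match by construction, so only the others could have failed. The 6 libraries thus had size factors from 0.928 to 1.09, and the largest was 1.17 times the smallest. The values do not show which library belonged to which mouse. The base means of all genes summed to 2.07e+07. Errors of base means below are the largest counting error that these depths allow (SE). They take 1 count as 1 read, and the methods of the study do not state how the counts were made. They hold no spread between mice, which a mean over all livers cannot show.

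The 8 genes differed in level by more than an order of magnitude. Hnf4a had a base mean of 15106 ± 52.1, Cebpa one of 7595 ± 36.9 and Prox1 one of 1662 ± 17.3. Foxa3 followed at 1171 ± 14.5, Cebpb at 952 ± 13.1, Onecut1 at 686 ± 11.1, Foxa2 at 666 ± 10.9 and Foxa1 at 492 ± 9.40. Hnf4a and Cebpa together made up 80.1% of the summed base mean of the 8 genes. In this order, Onecut1 and Foxa2 were 19.6 ± 15.6 apart and could not be separated beyond counting error, while each other pair of neighbours differed by at least 11.2 times its counting error. Between 84123 and 98794 reads stood behind the level of Hnf4a, and between 2739 and 3216 reads behind that of Foxa1, the lowest. The counting error was thus at most 1.91% of the level for every one of the 8 genes.

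**Figure D1:**
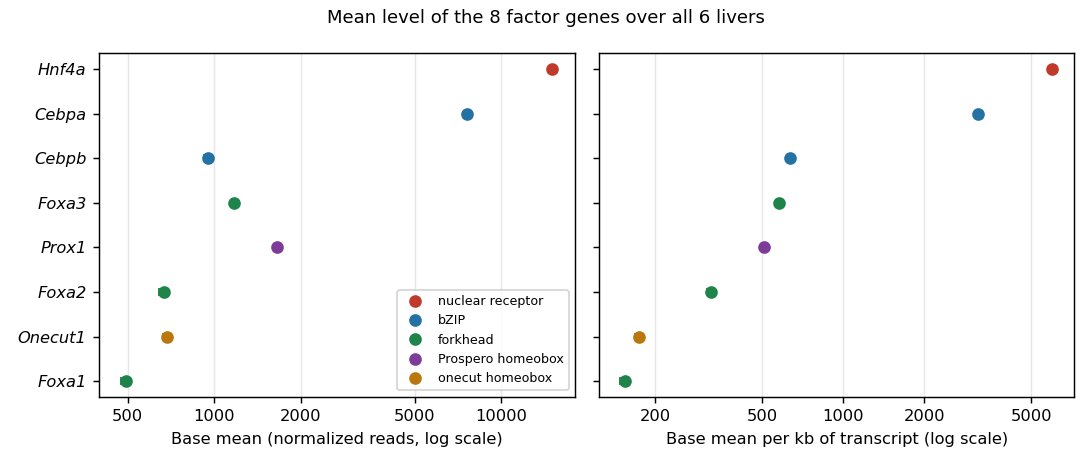
Base mean over all 6 livers (left) and base mean per kb of transcript (right) of the 8 factor genes, both on log axes. Points are the authors' means and bars, mostly hidden by the points, are 2 times the largest counting SE. Hnf4a at 15106 and Cebpa at 7595 stand apart from the other 6 genes, which lie between 492 and 1662.

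A long transcript gives more reads than a short one at the same number of molecules, so levels of different genes were compared as base mean per kb, using the median length of the protein-coding transcripts of each gene. Per kb, Hnf4a stood at 5985 and Cebpa at 3173, again highest, followed by Cebpb at 633, Foxa3 at 575, Prox1 at 506, Foxa2 at 322, Onecut1 at 173 and Foxa1 at 154. Prox1 moved to the fifth place by this correction, from the third by base mean, since its median transcript of 3285 bases is longer than those of Cebpb (1504 bases) and Foxa3 (2037 bases). The choice of transcript mattered most for this gene. The longest Prox1 transcript in the annotation has 7913 bases, of which 27.9% code for protein, and with that length its level was 210 per kb, below the 313 per kb of Foxa2. Hnf4a fell to 3463 per kb with the longest transcript and 3129 with all exons, and Cebpa to 2892 and 2881. Hnf4a remained first and Cebpa second of the 8 genes, and Foxa1 last, under each of 4 lengths tried.

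**Figure D2:**
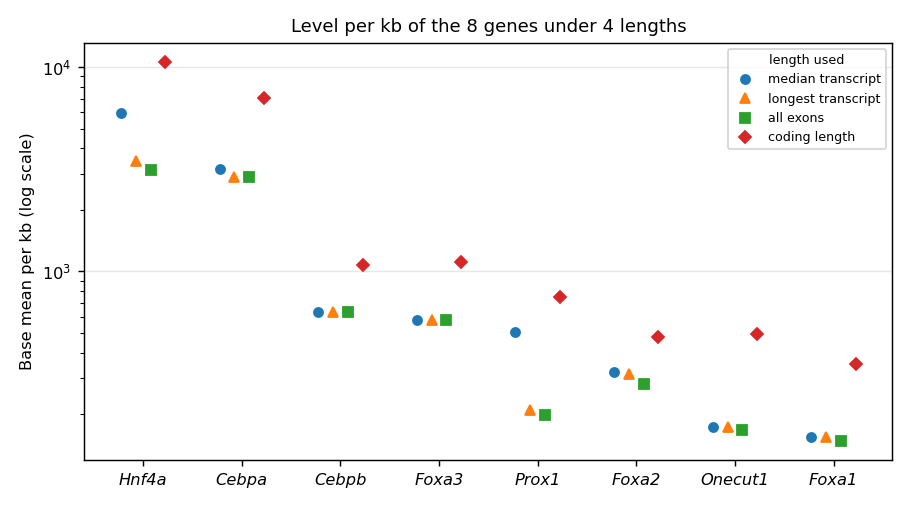
Base mean per kb of the 8 genes on a log axis, with the length taken as the median transcript, the longest transcript, all exons or the coding part. The order of Hnf4a, Cebpa and Foxa1 is the same in all 4, while Prox1 lies at 506 with the median transcript and at 210 with the longest.

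Hnf4a, the nuclear receptor gene (Entrez 15378; GRCm38 chromosome 2, 163506811 to 163572907), had the highest level of the 8 genes at 731 CPM, that is, per 1000000 of the summed base means. Per kb it ranked 299th of 15700 genes with a level above 0 and a known length, inside the upper 1.90%. Its paralog Hnf4g, which is known from the gut, had a base mean of 13.2 and a level per kb of 5.82, so that Hnf4a was 1028-fold higher per kb. Nearly all of the expression of this pair, 99.9% per kb, was Hnf4a. A non-coding RNA gene on the same stretch, Hnf4aos, had a base mean of 97.3. Whether the counting used strand is not given in the sources used here, so reads of overlapping parts cannot be assigned with certainty, although the Hnf4aos level was far below that of Hnf4a.

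Among the leucine zipper genes, Cebpa (Entrez 12606; GRCm38 chromosome 7, 35119293 to 35121928) was the main one at 368 CPM and ranked 574th per kb, inside the upper 3.66% of genes. C/EBPα restrains hepatocyte proliferation and drives genes of gluconeogenesis and lipid metabolism. Cebpb (Entrez 12608; GRCm38 chromosome 2, 167688915 to 167690432), a gene known for its induction in the acute phase response and in liver regeneration, stood at 46.1 CPM and ranked 2367th. Per kb Cebpa was 5.02 times Cebpb. Of 6 genes with a Cebp symbol these 2 were the highest per kb and held 78.6% of the summed level per kb of the 6. Cebpg, whose protein lacks an activation domain of its own, followed closely at 597 per kb, against 633 for Cebpb. By base mean, without the length correction, Cebpg (1679) was above Cebpb (952). Cebpz, a gene of this symbol that encodes a protein outside the leucine zipper family, stood at 225 per kb, Cebpe at 184 and Cebpd, another acute phase gene, at 30.7.

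The 3 forkhead genes differed from one another in level, and their sum per kb was below that of Hnf4a. Foxa3 (Entrez 15377; GRCm38 chromosome 7, 19013283 to 19023539) was the highest at 56.7 CPM and 575 per kb. Foxa2 (Entrez 15376; GRCm38 chromosome 2, 148042877 to 148046969) stood at 32.2 CPM and 322 per kb, and Foxa1 (Entrez 15375; GRCm38 chromosome 12, 57540628 to 57548029) at 23.8 CPM and 154 per kb. Per kb Foxa3 was 1.79 times Foxa2 and 3.73 times Foxa1, and the order of the 3 was the same under each of the 4 lengths. FOXA1 and FOXA2 are known to be needed in common for the onset of liver development, and FOXA3 has been linked to the glucose transporter GLUT2 in the adult liver. Their summed level per kb was 1051, and that of Hnf4a was 5.70 times as high by median transcript length. This ratio is smaller with the longest transcript or all exons, where Hnf4a stood at 3463 and 3129 per kb. Foxa1 shares part of its locus with the protein-coding gene Ttc6, which had a base mean of 14.7.

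Other forkhead genes reached levels like those of the FOXA genes. Of 31 gene rows with a Fox symbol 17 had a base mean of at least 10 and 8 were at 0. By median transcript length Foxa3 ranked 1st of them per kb, Foxa2 3rd and Foxa1 10th, and the 3 genes held 32.4% of the summed level per kb. Between them came Foxo4 at 369 per kb, Foxn3 at 244 and Foxj3 at 241. By base mean Foxn3 at 408 and Foxj3 at 335 were below Foxa1 at 492, while Foxo4 at 832 was above it. The places of Foxn3 and Foxj3 above Foxa1 rest on median transcripts of 1668.5 and 1391 bases, against 3191 for Foxa1. Foxo1, the insulin-regulated factor of gluconeogenesis, had a base mean of 1486, which was 1.27 times that of Foxa3. Its median transcript of 8665 bases placed it at 171 per kb. Foxm1, the forkhead gene of dividing cells, had a base mean of 4.55.

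Onecut1 (Entrez 15379; GRCm38 chromosome 9, 74861921 to 74889648) had 33.2 CPM and 173 per kb, and ranked 5598th of the 15700 genes. Its paralog Onecut2, which acts with it in bile duct and hepatocyte development, had a base mean of 2441, or 3.56 times that of Onecut1. Per kb of median transcript the order turned round, with Onecut1 1.15 times Onecut2, because the annotated Onecut2 transcript has 16234 bases. Per kb of coding sequence Onecut2 was 3.28 times Onecut1. These values do not settle which of the 2 genes had more transcripts. Onecut3 was at 0. The related cut-domain genes Cux1 and Cux2 had 103 and 1.10 per kb.

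Prox1 (Entrez 19130; GRCm38 chromosome 1, 190118035 to 190170827) had 80.4 CPM and 506 per kb, and ranked 2814th. PROX1 is needed for hepatocyte precursors to spread in the embryonic liver and is also the defining factor of lymphatic endothelium. Prox2 had a base mean of 31.2, and Prox1 was 46.7-fold higher per kb. In bulk liver the levels of several cell types add up, and fewer cells of a type cannot be told apart from less RNA per cell. Per kb, the 6 endothelial markers listed ranged from Flt4, the receptor gene of lymphatic and sinusoidal endothelium, at 65.0 to Clec4g, a gene of sinusoidal endothelium, at 652, above the 506 of Prox1. Kdr, a VEGF receptor gene, stood at 119 and Pecam1 at 108. The share of endothelial cells in the Prox1 level was not tested.

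**Figure D3:**
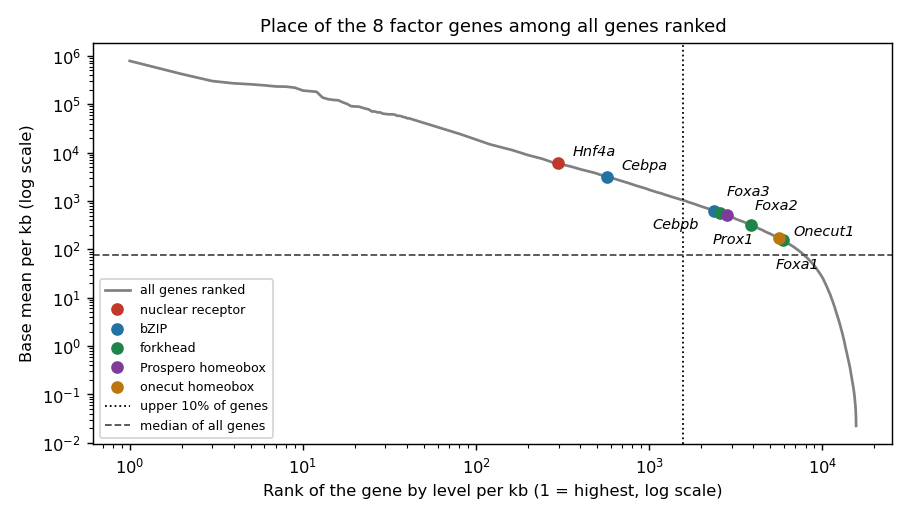
Base mean per kb (log axis) against rank (log axis) for all 15700 genes ranked, as a line, with the 8 factor genes as points coloured by protein class. Hnf4a at rank 299 and Cebpa at rank 574 lie in the upper 10% of genes by median transcript length, left of the dotted line (with the union of all exons 4 of the 8 genes do), and all 8 points lie above the dashed median of 75.9 per kb.

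All 8 genes were above the median of the 15700 genes, 75.9 per kb, and their own median of 540 per kb was 7.12 times as high. Of the 8 genes 2, Hnf4a and Cebpa, lay in the upper 10%, and 4 did when the length was taken as the union of all exons, with Cebpb and Foxa3 added, whereas Foxa1 at 154 per kb had 37.6% of genes at or above its level. For comparison, 47 further genes of transcription factors known from liver, or of their paralogs, were listed as liver factors. Hnf4g and Onecut3 are among the paralogs. The 47 genes had a median of 440 per kb, with 40 above the median of all genes and 16 in the upper 10%. The 8 genes were therefore spread over the range of the list rather than gathered at its top. By median transcript length Hnf4a ranked 2nd of the 55 factor genes, Cebpa 5th, Cebpb 24th and Foxa3 26th. Prox1 ranked 28th, Foxa2 32nd, Onecut1 39th and Foxa1 41st. With the longest transcript Cebpb ranked 18th, Foxa3 19th and Prox1 32nd, and with the union of all exons 15th, 16th and 29th. By coding length they ranked 25th, 22nd and 29th. The highest of the other factors were Mlxipl, which encodes the carbohydrate sensor ChREBP, at 7178 per kb, Rxra, the common partner of many nuclear receptors, at 5702, and Ppara, the fatty acid receptor of the liver, at 4891. The first place of Mlxipl rests on short annotated transcripts with a median of 736 bases. By its longest transcript, of 3622 bases, it stood at 1459 per kb and 8th. Hnf4a was 2nd with the longest transcript and with the union of all exons as well, and 1st by coding length. Cebpa was 4th, 3rd and 4th with these lengths.

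**Figure D4:**
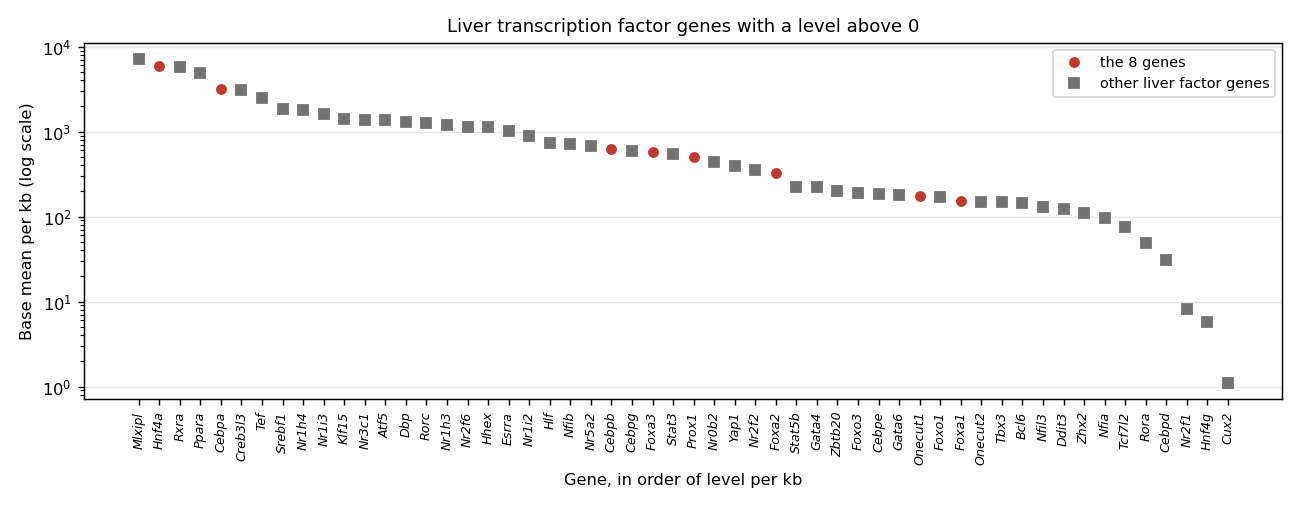
Base mean per kb (log axis) of the 8 factor genes (red circles) and the other liver factor genes with a level above 0 (grey squares), in order of level. By median transcript length Hnf4a and Cebpa are 2nd and 5th of 55, and the other 6 genes lie from the 24th to the 41st place.

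The tissue showed the defining genes of hepatocytes at high level. All 8 hepatocyte markers listed were present, from Asgr1 at 9100 per kb to Alb, the albumin gene, at 787945, with the transferrin gene Trf at 302019 and the apolipoprotein gene Apoa1 at 258973 next to it, and they took up 115921 CPM in sum. The 8 factor genes took up 1371 CPM in sum. Among 20 textbook targets of these factors 19 were in the upper 10% of genes, and their median was 29.4 times that of the factors. The targets overlap the hepatocyte markers, with Alb, Trf and Apoa1 among the shared genes. Whether the factors set the levels of the targets was not tested. Alb, a target of C/EBP and FOXA factors, was 132-fold above Hnf4a per kb. At the lower end of the targets stood Igfbp1, an insulin-repressed gene that FOXA and FOXO factors bind, at 324 per kb. This was close to the 322 of Foxa2. Markers of other cells were lower in sum, with 254 CPM for stellate cells, 161 CPM for macrophages, 155 CPM for endothelium, 65.3 CPM for cholangiocytes and 6.84 CPM for lymphocytes. Bile duct cells also express HNF6 and FOXA factors. Of the 6 cholangiocyte markers Spp1, which is not particular to bile ducts, was at 851 per kb, above all of Foxa1, Foxa2, Foxa3 and Onecut1. The other 5 were below each of these 4 genes, with Epcam at 24.3 per kb, Sox9 at 16.5, the keratin genes Krt19 at 15.9 and Krt7 at 8.27, and Cftr at 0.83. Among the stellate cell markers Dcn stood at 1945 per kb, above 6 of the 8 factor genes, followed by Reln at 108 and Lrat at 70.6, with Col1a1 lowest at 19.3. The macrophage markers ranged from Timd4 at 39.7 per kb to Cd5l at 508, Clec4f at 442 and Lyz2 at 413, against 506 for Prox1 and 322 for Foxa2. The lymphocyte markers were lower than every factor gene, from Cd3e at 2.48 per kb to Ptprc at 24.7, with Nkg7 at 9.68 and Cd79a at 5.09. The part of these cells in the levels of the 8 genes was not tested.

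The promoters of the 8 genes differed in base composition. RefSeq windows of GRCm38 from 250 bases before to 50 bases after an annotated start were available for all 8 genes, 12 windows in all. The 1 window of Foxa1, on the minus strand, has its start at 57546111. The annotated gene reaches to 57548029, and a start at that end has no window here. CpG observed over expected compares the number of CG pairs with the number that the C and G content of the window alone would give. This ratio was 0.163 and 0.183 in the 2 windows of Hnf4a, below the median of 0.384 over 32851 mouse windows. In the 10 windows of the other 7 genes it ranged from 0.548 in a Foxa2 window to 1.03 in that of Cebpb, all above that median. Hnf4a, the gene of the highest level, thus had the windows poorest in CpG. Cebpa, the second in level, stood at 0.853, so the 8 genes do not order by level in this measure.

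**Figure D5:**
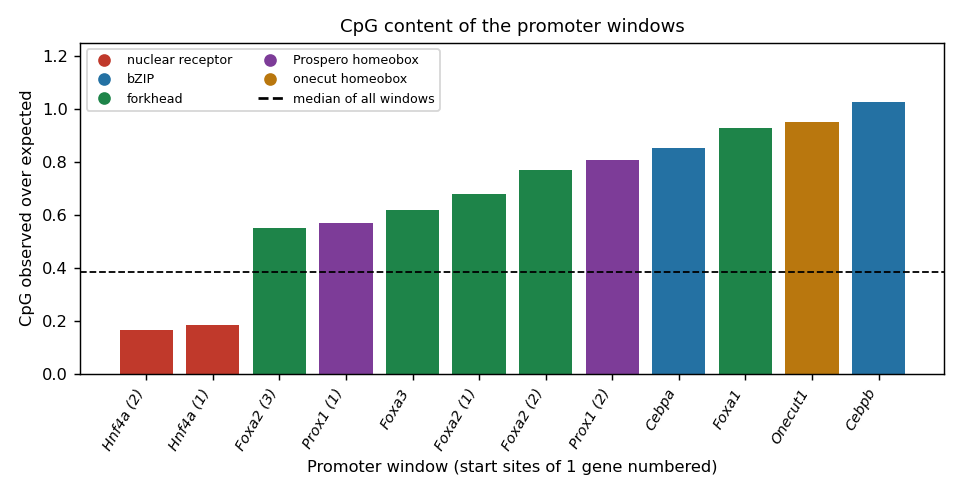
CpG observed over expected in the 12 promoter windows of the 8 genes, in rising order and coloured by protein class, with start sites of 1 gene numbered along the chromosome. The dashed line is the median of all mouse windows, 0.384, and the 2 Hnf4a bars at 0.163 and 0.183 are the ones below it.

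The windows were searched on both strands for motifs bound by liver factors, and 3 are printed, 1 each of Hnf4a and Cebpa, the 2 most abundant genes, and of Foxa3, which show where such letters lie. Each run is the 250 bases before a start, 5′ to 3′ on the strand of the gene, with matches in capitals to the FOXA motif TGTTTNC, the HNF6 motif ATTGATT or the TATA box TATAAA.
Hnf4a upstream start, chr2:163506607-163506856, plus strand: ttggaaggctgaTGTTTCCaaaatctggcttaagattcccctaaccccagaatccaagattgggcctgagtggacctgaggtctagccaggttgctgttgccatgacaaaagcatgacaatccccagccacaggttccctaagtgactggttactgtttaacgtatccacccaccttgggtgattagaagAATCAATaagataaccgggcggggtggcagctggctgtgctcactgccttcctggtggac
Cebpa, chr7:35119043-35119292, plus strand: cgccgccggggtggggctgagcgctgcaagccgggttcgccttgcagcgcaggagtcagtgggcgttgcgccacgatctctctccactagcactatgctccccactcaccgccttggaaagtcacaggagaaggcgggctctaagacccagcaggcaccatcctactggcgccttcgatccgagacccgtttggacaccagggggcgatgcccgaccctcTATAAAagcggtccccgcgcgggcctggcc
Foxa3, chr7:19023540-19023789, minus strand: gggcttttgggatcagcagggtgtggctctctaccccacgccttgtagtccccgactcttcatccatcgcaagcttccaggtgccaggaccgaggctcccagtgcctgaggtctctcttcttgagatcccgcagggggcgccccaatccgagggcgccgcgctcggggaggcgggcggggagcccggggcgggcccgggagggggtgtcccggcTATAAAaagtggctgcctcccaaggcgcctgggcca

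Of the 2 annotated Hnf4a starts the downstream one is known to be used in adult hepatocytes, and the upstream one is known from the pancreas, but a base mean per gene holds both. The HNF6 motif was in the upstream Hnf4a window, at 60 to 54 bases before the start, and in a Foxa2 window, and in 2.86% of the 32851 mouse windows. The FOXA motif was in windows of Foxa1, Hnf4a and Prox1 and in 20.5% of all windows. The TATA box lay 30 bases before the start of Cebpa and 36 before that of Foxa3, on the strand of the gene. At 34 bases before 1 start of Prox1 it matched on the opposite strand, as TTTATA. It was also found in windows of Foxa2 and Cebpb at other places and, on either strand, in 13.6% of all windows. The HNF4 motif CAAAGTCCA and the C/EBP motif TTGCNNAA were in none of the 12 windows, and in 0.475% and 10.8% of all windows. Of 4 general promoter motifs, the GC box GGGCGG was in 10 of the 12 windows and in 35.7% of all windows, and the CCAAT box in 6 and in 37.4%. The E-box CACGTG and the CRE motif TGACGT were each in 1 window, that of Onecut1, and in 7.15% and 7.51% of all windows. These matches are letters in a window and no measure of binding.

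The 8 genes lie on 5 chromosomes. Hnf4a, Cebpb and Foxa2 are on chromosome 2, with 4.18 Mb between the starts of Hnf4a and Cebpb and 15.5 Mb between Hnf4a and Foxa2, and Cebpa and Foxa3 are on chromosome 7, 16.1 Mb apart. Cebpa and Cebpb have 1 exon each in their longest transcript, against 10 in that of Hnf4a.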

How the data were processed

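Poly-A RNA-seq of liver came from 3 LSD1-LKO and 3 Control mice. Per the labels and the study's methods, alignment to mm10 was done by the authors with STAR, transcript assembly with StringTie and the group comparison with DESeq2, run in Galaxy. The sources used here give no tool version, gene annotation or strand setting. As deposited, the base mean is a signal: read counts over size factors, averaged by the authors across all 6 livers. The table also holds the authors' log2 fold change, its SE, a Wald statistic, a p-value and an adjusted p-value. These columns are their own comparison and were not used. Without values per liver, the test planned between LSD1-LKO and Control could not be run. Columns of single samples left aside numbered 0.

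CPM is a gene's share of the total base mean, times 1000000. Lengths are medians over protein-coding transcripts of GENCODE vM21 (GRCm38, the build also called mm10), joined by Entrez identifier. Of 18442 genes with a base mean above 0, 15700 had a length and were ranked. Coordinates and promoter windows are from RefSeq, GRCm38.p6. All 119 list entries matched a row. The value of 1 read per library was taken as the 6 most frequent base means under 0.2, a step tested on simulated data, and the counting SE of a base mean is at most the square root of the base mean times the largest such value. Genes were named as the 8 members, the 3 highest further genes of each family by symbol, the 3 highest and the lowest per kb of each list, markers at or near 0 and Kdm1a. Foxo1, Foxm1, Cebpd, Krt19, Krt7, Tbp and the overlapping Hnf4aos and Ttc6 fall outside this rule and were named after their values were seen. 2 further genes and 1 motif are not reported here. Members, lists and motifs were chosen with earlier results of these data known. Python 3.11.15, pandas 2.3.3 and matplotlib 3.10.9 were used. Alternatives were other lengths, a base mean of at least 10, no length correction and other totals for CPM.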

Additional observations from a re-analysis of the deposited data

How the results depend on the processing

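Of the 8 genes, 2 lay in the upper 10% of all genes per kb with the median transcript, the longest transcript, the coding length, no length correction or only genes with a base mean of at least 10. With the union of all exons as length 4 did, Cebpb and Foxa3 in addition to Hnf4a and Cebpa. The levels per kb of Cebpb and Foxa3, 633 and 575, were the same with this length as with the median transcript. Their own levels thus did not move, and the change in other genes was not tested. Among the liver factors 2 of the 8 genes, Hnf4a and Cebpa, were in the upper 10% under every length. The longest transcript moved 3 of the 8 levels per kb by more than 2 counting SE, the union of all exons 6 and the coding length 8, to between 0.392 and 2.84 times the level with the median transcript. CPM was 1.06 times as high when genes of the mitochondrial genome were left out of the total and 1.77 times as high without the 100 most abundant genes, alike for all 8 genes. No paired analysis was possible because each gene has 1 mean over all livers, and for the same reason no liver could be left out. The normalization, low-count filter and replicate alternatives planned for LSD1-LKO against Control were not run. Depth limits these levels little, with a counting error of at most 1.91% if 1 count is 1 read, but the spread between mice is unknown.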

Other observations

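Housekeeping genes were set beside the 8 factors for comparison. Actb, at 6432 per kb, and the ribosomal gene Rplp0, at 5621, stood close to Hnf4a at 5985. This closeness rests on short annotated transcripts, with medians of 930 and 854 bases against 2524 for Hnf4a. By base mean they stood at 5982 and 4800, against 15106 for Hnf4a. Tbp, the gene for the TATA-binding protein, stood at 171 per kb, close to Onecut1 at 173 and above Foxa1 at 154. Its base mean of 165 was below the 686 of Onecut1 and the 492 of Foxa1. The highest of the 6 housekeeping genes was Eef1a1 at 42490 per kb and the lowest Ppia at 8.56, from a base mean of 11.2. The reason for this low Ppia value was not tested, so it cannot be read as low expression of the gene.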
